A study of Mus musculus with 15 samples.

Results

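The integrated stress response was followed through 10 genes, namely the transcription factors Atf4, Atf3, Atf5 and Ddit3 and the targets Trib3, Chac1, Asns, Psat1, Slc7a11 and Sesn2. They were chosen by name as known factors and targets of the pathway, with earlier results of these data known, and are 10 of the 55471 gene IDs counted. Poly(A) RNA of mouse E14 embryonic stem cells (mESCs) and of embryoid bodies (EBs), the aggregates that such cells form as they differentiate in suspension, was sequenced in 15 libraries, 3 in each of 5 groups. NSD1-dTAG EBs were grown for 6 days with 500 nM dTAG-13, and NSD1-dTAG EBs were grown for 6 days without it. The NSD1-dTAG line makes NSD1, a methyltransferase of histone H3 lysine 36, with a degron tag, and dTAG-13 is a small molecule that brings a tagged protein to the ubiquitin ligase receptor cereblon. The mESC groups were nontreated NSD1-dTAG mESCs, wild-type mESCs that had received 500 nM dTAG-13 for 72 h, and nontreated wild-type mESCs, all in 2i/LIF medium on gelatin. Wild-type EBs and NSD1-dTAG mESCs with dTAG-13 were not analysed here. All tagged samples are labelled as 1 line, and the labels do not say whether it is a clone. The labels call the libraries of a group biological replicates and do not describe separate cultures, so each p-value speaks of the spread among these libraries, which may be technical.

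The integrated stress response starts when a stress-sensing kinase phosphorylates the translation factor eIF2. General translation falls, while the ATF4 mRNA, whose upstream open reading frames hold back its translation in unstressed cells, is translated more. ATF4 pairs with other bZIP proteins, such as those of the C/EBP family, and binds composite C/EBP-ATF elements in genes of amino acid supply, redox balance and feedback. Because ATF4 is set largely at the level of translation, its RNA need not follow its protein, and only RNA was counted here.

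The promoters of the 10 genes were searched for that composite element, since it is the sequence through which several of them are known to be regulated. RefSeq gives 12 promoter windows for the 10 genes on GRCm38.p6, each from 250 bases before to 50 bases after an annotated start. Positions below count from that RefSeq start, which differs from the GENCODE start for some of the genes. The motif TGATGNAA, sought on both strands, lay in windows of 5 of the 10 genes (Atf3, Trib3, Chac1, Asns and Slc7a11), against 4.5% of the 27025 genes with a window and 4.0% of all 32851 windows. The cAMP response element TGACGTCA, which is its own reverse complement and does not overlap the first motif's letters, lay in windows of none of the 10 genes, against 2.0% of all genes with a window. A match is a description of letters and not a measured binding site. The 6 matches are shown with 11 bases on either side, turned so that the capitals, which mark the motif, read in the same direction:
Atf3, chr1:191183425-191183454, plus strand, positions -110 to -103 from the start: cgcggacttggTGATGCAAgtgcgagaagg
Trib3, chr2:152344028-152344057, plus strand, positions 15 to 22: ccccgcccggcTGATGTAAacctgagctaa
Chac1, chr2:119351038-119351067, minus strand, positions -193 to -186: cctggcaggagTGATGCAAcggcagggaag
Asns, chr6:7693214-7693243, minus strand, positions -23 to -16: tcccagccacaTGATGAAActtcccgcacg
Slc7a11, chr3:50443661-50443690, minus strand, positions -66 to -59: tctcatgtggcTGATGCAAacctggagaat
Slc7a11, chr3:50443642-50443671, plus strand, positions -47 to -40: gggctgcatgaTGATGCAAattctccaggt

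Slc7a11 and Ddit3, the genes with the highest fold changes under dTAG-13 below, differ in this respect, and the 250 bases before their starts are given 5′ to 3′ on the strand of the gene. The Slc7a11 stretch is chr3:50443614-50443863 on the minus strand, with both matches in capitals, the second as its reverse complement. The Ddit3 stretch is chr10:127290543-127290792 on the plus strand and holds neither motif. Sequence farther upstream was not searched, so an element there would have been missed.
Slc7a11: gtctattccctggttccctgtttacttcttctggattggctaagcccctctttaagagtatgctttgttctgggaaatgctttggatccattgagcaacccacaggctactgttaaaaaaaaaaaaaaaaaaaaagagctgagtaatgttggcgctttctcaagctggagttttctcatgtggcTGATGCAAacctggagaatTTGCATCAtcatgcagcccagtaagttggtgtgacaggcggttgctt
Ddit3: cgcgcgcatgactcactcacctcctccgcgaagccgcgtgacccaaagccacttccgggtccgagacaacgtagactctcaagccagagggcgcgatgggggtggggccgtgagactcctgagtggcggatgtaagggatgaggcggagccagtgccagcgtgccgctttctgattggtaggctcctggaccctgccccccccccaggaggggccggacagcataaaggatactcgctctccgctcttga

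Gene counts summed to between 18704591 and 29103958 per library. In each group 1 library stood apart from the other two, with the lowest count-weighted exon length and the largest part of its counts on genes of ribosomal proteins. These were library 3 of the dTAG-13 EBs, library 3 of the nontreated EBs, library 1 of the NSD1-dTAG mESCs, library 3 of the dTAG-13 wild-type mESCs and library 1 of the nontreated wild-type mESCs. That part was 6.27% to 8.77% of counts, against 5.16% to 5.84% in the other 10 libraries. Results for the 10 genes and for the gene lists are given with and without the libraries that stand apart. Fits without them keep 2 libraries a group. The libraries left out were picked from these same counts, and those kept lie closer together. The SE and p-values of such fits therefore measure a narrowed spread. Nsd1 mRNA was at 230.0 to 329 CPM (gene counts scaled to the same total in every library) in dTAG-13 EBs and 209 to 261 CPM in nontreated EBs. The degron acts on the protein, so this RNA does not check its loss. The summed CPM of 8 pluripotency markers was 1373 to 1475 in dTAG-13 EBs, 1699 to 1821 in nontreated EBs and 3856 to 4293 over the 9 mESC libraries, where all 8 were detected. Over the 9 mESC libraries 4 definitive endoderm markers summed to 0.57 to 1.11 CPM and 4 fibroblast markers to 0.4675 to 1.455 CPM. There 6 visceral endoderm markers summed to 0.57 to 1.29 CPM and 4 neuroectoderm markers to 45.3 to 53.3 CPM. Of these lists only Cer1 (endoderm), Col3a1 (fibroblasts), Ttr (visceral endoderm) and Neurog2 (neuroectoderm) had 0 counts in all 9 mESC libraries. In bulk samples such as these, fewer cells of a type and less RNA per cell cannot be told apart.

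**Figure D1:**
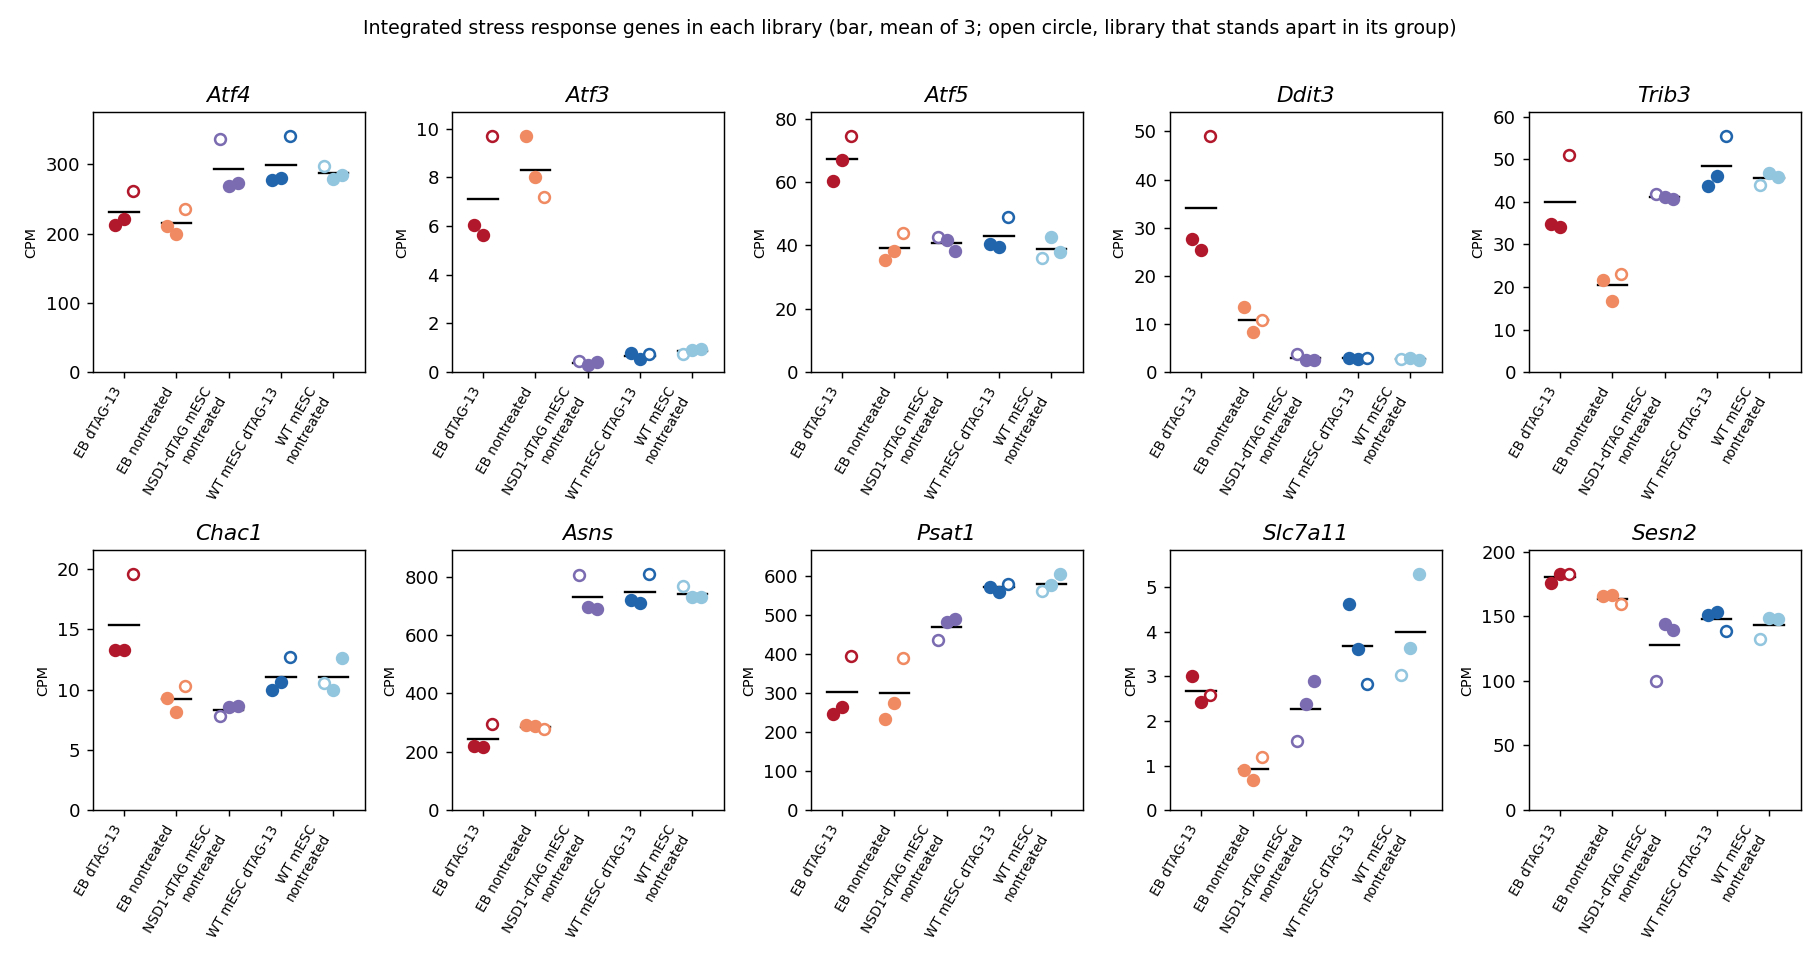
Level (CPM, linear axis from 0) of the 10 genes in each of 15 libraries, with the 5 groups along the horizontal axis. Each circle is a library, the bar is the mean of 3, and open circles are the libraries that stand apart; Ddit3 is at 25.4 to 49.0 CPM in dTAG-13 EBs and at 8.44 to 13.5 CPM in nontreated EBs.

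Set against gene length, Asns, Psat1 and Atf4 were the most abundant of the 10, and Slc7a11 and Atf3 the least. In nontreated wild-type mESCs the level per kilobase of exon was 272 CPM per kb for Asns, 136 for Psat1, 122 for Atf4 and 41.2 for Sesn2. It was 21.4 CPM per kb for Trib3, 19.5 for Atf5, 6.75 for Chac1, 1.61 for Ddit3, 0.408 for Atf3 and 0.286 for Slc7a11. The order differed in dTAG-13 EBs, where Atf4 stood at 98.3 CPM per kb, Asns at 89.1, Psat1 at 70.8, Sesn2 at 51.9 and Atf5 at 33.7. Ddit3 followed at 19.9 CPM per kb, ahead of Trib3 at 18.8, Chac1 at 9.41, Atf3 at 3.30 and Slc7a11 at 0.192. With the longest annotated transcript as the length, Asns at 121 CPM per kb and Psat1 at 115.0 came before Atf4 at 114.8 in dTAG-13 EBs.

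All 10 genes are annotated as protein coding in GENCODE M21 on GRCm38. The union of their exons spans 1637 to 4254 bp, except for Slc7a11, whose exons span 13922 bp. Slc7a11 lies at chr3:49892526-50443614 and Trib3 at chr2:152337422-152344032, both on the minus strand. The Trib3 motif match, downstream of the RefSeq start, lies upstream of this GENCODE span. The Asns match, upstream of the RefSeq start, lies within the GENCODE span of Asns. Ddit3 (chr10:127290774-127296288, plus strand) shares 68 bp, 4.0% of its exons, with Mars on the opposite strand, and Mars was at 204 to 297 CPM in the group means. Atf5 (chr7:44812256-44816658, minus strand) shares 82 bp, 4.1% of its exons, with Nup62, at 202 to 250 CPM, and Il4i1, at 1.61 to 2.95 CPM, on the opposite strand. The counted strand is not known from the files, so Ddit3 and Atf5 counts are uncertain to the extent of those reads.

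Under dTAG-13, EBs had more RNA of 4 of the 10 genes than nontreated EBs, and none of the 10 was called lower. All 10 genes passed the filter on low counts in this and every other comparison. The 4 were Ddit3, Slc7a11, Trib3 and Atf5, called at an adjusted p below 0.05 by the quasi-likelihood test of edgeR with Benjamini-Hochberg adjustment over all 15236 genes tested. Among all genes 6.76% were called, and 3.98% were called higher. The median log2 fold change of the 10 genes was 0.42, against -0.01 for all genes. In plain CPM 6 of the 10 genes had all dTAG-13 EB libraries above all nontreated EB libraries, against 15.9% of all genes.

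Ddit3 encodes CHOP, a bZIP factor of the C/EBP family that acts downstream of ATF4. It was at 27.7, 25.4 and 49.0 CPM in dTAG-13 EBs and at 13.5, 8.44 and 10.9 CPM in nontreated EBs. The groups did not overlap, and dTAG-13 library 3, which stands apart, was the highest of all. The log2 fold change was 1.62 ± 0.28 (SE, n = 3 each), with an adjusted p of 0.0180 by edgeR. Without both libraries that stand apart it was 1.26 ± 0.20 (SE, n = 2 each), with an adjusted p of 0.00468 by edgeR.

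Slc7a11 encodes the light chain of the cystine-glutamate exchanger, which supplies cysteine for glutathione. It was at 3.01, 2.43 and 2.59 CPM in dTAG-13 EBs and at 0.895, 0.676 and 1.19 CPM in nontreated EBs, with no overlap. These values rest on 65 to 77 counts per dTAG-13 EB library and 19 to 32 counts per nontreated EB library. The log2 fold change was 1.51 ± 0.26 (SE, n = 3 each; adjusted p = 0.0176 by edgeR).

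Trib3, a pseudokinase that binds ATF4 and restrains it in feedback, was at 34.7, 34.0 and 50.9 CPM in dTAG-13 EBs and at 21.6, 16.8 and 23.1 CPM in nontreated EBs. The groups did not overlap, and library 3 was again the highest of the dTAG-13 EBs. Its log2 fold change was 0.94 ± 0.20 (SE, n = 3 each; adjusted p = 0.0300 by edgeR). Atf5, a bZIP factor that is itself translated under stress, was at 60.3, 67.0 and 74.5 CPM in dTAG-13 EBs and at 35.3, 38.2 and 44.0 CPM in nontreated EBs. Here too the groups did not overlap, and the log2 fold change was 0.76 ± 0.12 (SE, n = 3 each; adjusted p = 0.0154 by edgeR).

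Chac1, an enzyme that breaks down glutathione, missed the threshold without overlap between groups. It was at 13.3, 13.3 and 19.6 CPM in dTAG-13 EBs and at 9.32, 8.15 and 10.3 CPM in nontreated EBs. The log2 fold change was 0.71 ± 0.19 (SE, n = 3 each), with an adjusted p of 0.0678 by edgeR. Same-numbered EB libraries deviated together, most for library 3, which stands apart in both groups. With the replicate number as a block Chac1 was called, at an adjusted p of 0.0203 by edgeR, as were the other 4. Of all genes 6.87% were then called higher. The labels do not give this pairing, which was read from the same counts, so the call is no separate support.

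The remaining 5 genes were not called. Atf4 itself was at 213, 221 and 261 CPM in dTAG-13 EBs and at 210.4, 200 and 235 CPM in nontreated EBs, with overlap and a log2 fold change of 0.09 ± 0.12 (SE). Psat1, which makes phosphoserine on the way to serine, was at 245, 263 and 395 CPM in dTAG-13 EBs and at 234, 274 and 389 CPM in nontreated EBs. Library 3 stood above the other two in both groups, and the log2 fold change was -0.01 ± 0.24 (SE). Sesn2, a leucine sensor upstream of mTORC1, was at 176, 183 and 183 CPM in dTAG-13 EBs and at 166, 166 and 159.5 CPM in nontreated EBs, which did not overlap. Its log2 fold change of 0.12 ± 0.08 (SE) had an adjusted p of 0.424 by edgeR.

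Asns and Atf3 were called in this comparison only in fits that left out dTAG-13 EB library 3. Asns, which makes asparagine, was at 218, 218 and 295 CPM in dTAG-13 EBs and at 291, 288 and 276 CPM in nontreated EBs. Its log2 fold change was -0.25 ± 0.13 (SE; adjusted p = 0.341 by edgeR), and it was -0.43 ± 0.05 (SE; adjusted p = 0.00184 by edgeR) without both libraries that stand apart. Atf3, a stress-induced bZIP factor, was at 6.02, 5.64 and 9.69 CPM in dTAG-13 EBs and at 9.69, 8.01 and 7.17 CPM in nontreated EBs. Its log2 fold change was -0.24 ± 0.23 (SE), and without both libraries -0.62 ± 0.16 (SE; adjusted p = 0.0296 by edgeR). With only 1 library left out Atf3 was never called, at adjusted p of 0.106 or more by edgeR. Without both libraries that stand apart 7 of the 10 genes were called, Chac1 and the first 4 higher and Asns and Atf3 lower, while 20.9% of all genes were called.

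Several of these calls were lost when 1 library was left out, as were many calls over all genes. Of all genes 182 were called without nontreated EB library 2, 301 without nontreated EB library 1 and 184 without dTAG-13 EB library 1. In the main fit 1030 were called. Without nontreated EB library 2 none of the 10 was called, and the edgeR adjusted p of the first 4 lay between 0.0725 and 0.120. Without nontreated EB library 1 only Ddit3 kept its call, at an adjusted p of 0.0495 by edgeR, while Atf5 was at 0.0584, Slc7a11 at 0.0665 and Trib3 at 0.0875. Without dTAG-13 EB library 1 Atf5 and Ddit3 kept theirs, while Trib3 was at 0.0653 and Slc7a11 at 0.0735. Without dTAG-13 EB library 3 Asns was called lower, at an adjusted p of 0.0246 by edgeR, beside the 4. Of all 15639 genes tested 1148 were then called, 468 of them lower. The fold changes of the 4 kept their sign throughout.

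**Figure D2:**
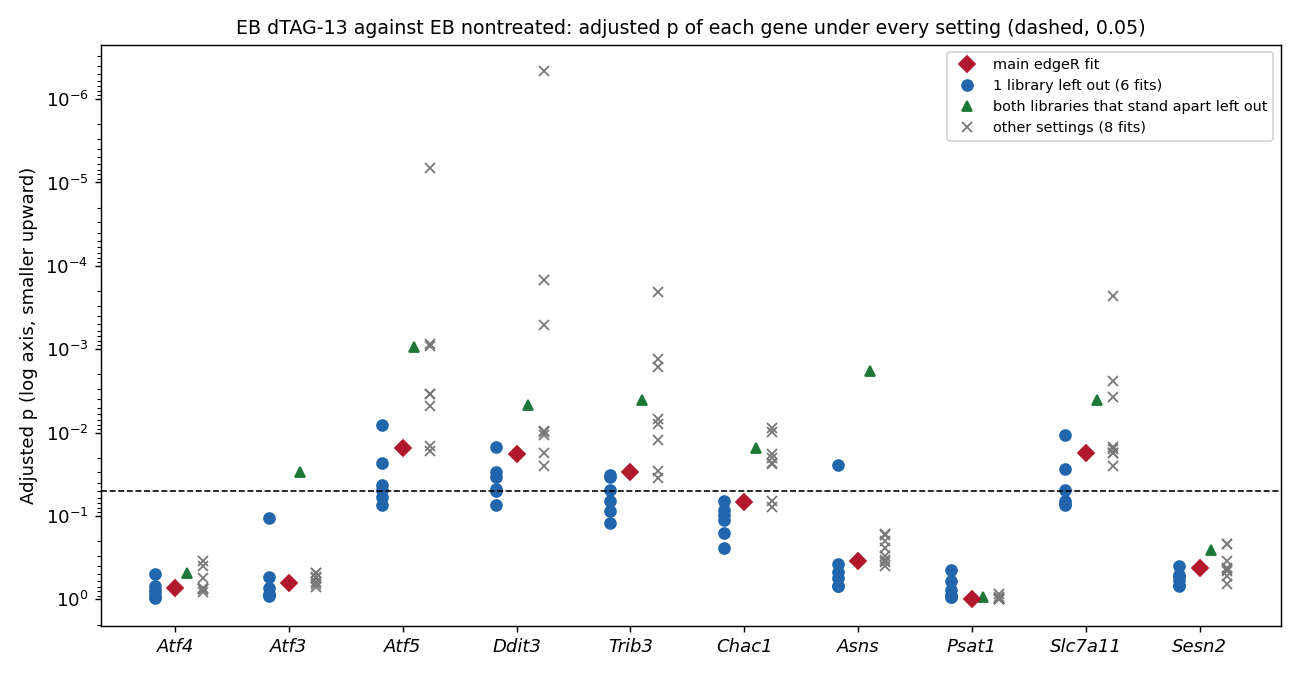
Adjusted p (log axis, smaller values upward) of each of the 10 genes for dTAG-13 EBs against nontreated EBs in the main fit and under 15 alternatives. Each symbol is a fit and the dashed line marks 0.05; Ddit3, Atf5, Trib3 and Slc7a11 lie above the line in the main fit and partly below it when 1 library is left out, and Atf4, Psat1 and Sesn2 lie below it in every fit.

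Markers of other cell types moved with dTAG-13 in the same libraries. The summed CPM of 6 primitive streak and mesoderm markers was 32.6 to 121 in dTAG-13 EBs and 295 to 785 in nontreated EBs. For 4 definitive endoderm markers it was 11.6 to 25.8 in dTAG-13 EBs and 53 to 208 in nontreated EBs. The sums overlapped for visceral endoderm (96.5 to 344 in dTAG-13 EBs and 169.6 to 251 in nontreated EBs), for fibroblasts (12.8 to 20.2 in dTAG-13 EBs and 12.8 to 22.1 in nontreated EBs), for neuroectoderm (14.04 to 18.9 in dTAG-13 EBs and 15.1 to 22.0 in nontreated EBs) and for formative epiblast (1313 to 2023 in dTAG-13 EBs and 1126 to 1737 in nontreated EBs). Of these lists' genes only Neurog2, a neuroectoderm marker, had 0 counts in all libraries of an EB group, the nontreated one. The part of cell composition in the fold changes of the 10 genes was not tested.

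Around the 10 genes, 10 lists of other pathway and stress genes held 127 genes tested in EBs, of which 6 were called higher and 1 lower. That is 5.51% of them, near the 6.76% of all genes. Of 16 genes for eIF2 kinases and their regulators, eIF2 and eIF2B subunits and eIF2 phosphatase subunits, 1 was called higher and none lower, with a median log2 fold change of -0.10. It was Impact, an inhibitor of the eIF2 kinase GCN2, at 582 ± 28.4 CPM in dTAG-13 EBs and 434 ± 10.4 CPM in nontreated EBs (SD, n = 3 each), with a log2 fold change of 0.41 ± 0.09 (SE; adjusted p = 0.0348 by edgeR). Of 13 enzymes of amino acid and folate metabolism known as ATF4 targets, 1 was called higher and none lower, with a median of -0.04. It was Aldh1l2, a mitochondrial folate dehydrogenase, with a log2 fold change of 1.11 ± 0.25 (SE; adjusted p = 0.0366 by edgeR) at 2.77 ± 0.56 CPM in dTAG-13 EBs and 1.26 ± 0.20 CPM in nontreated EBs (SD, n = 3 each).

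Of 18 other stress and feedback targets of ATF4 or CHOP, 2 were called higher and none lower, and the median was 0.24. The stress cytokine Gdf15 was at 2.70, 2.69 and 2.90 CPM in dTAG-13 EBs and at 1.04, 0.605 and 1.23 CPM in nontreated EBs, a log2 fold change of 1.502 ± 0.28 (SE; adjusted p = 0.0214 by edgeR). Cdsn, known as a component of corneodesmosomes in skin, was at 0.753 ± 0.12 CPM in dTAG-13 EBs and 0.292 ± 0.07 CPM in nontreated EBs (SD, n = 3 each), a log2 fold change of 1.33 ± 0.31 (SE; adjusted p = 0.0450 by edgeR). No call was made among 10 bZIP partners, 10 amino acid transporters and 20 cytosolic aminoacyl-tRNA synthetases. In these 3 lists the smallest p belonged to Cebpd (adjusted p = 0.106 by edgeR), the neutral amino acid transporter Slc1a4 (0.0576) and Dars (0.143), and the medians were 0.16, 0.19 and -0.02.

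Among lists of other stress responses, none of 14 targets of the unfolded protein response factors ATF6 and XBP1 was called, with the smallest p for Pdia6 (adjusted p = 0.240 by edgeR) and a median log2 fold change of -0.15. None of 8 p53 targets was called, with the smallest p for Mdm2 (adjusted p = 0.132 by edgeR) and a median of 0.07. Among 9 heat shock genes, Hsph1 was called lower, at 189 ± 7.54 CPM in dTAG-13 EBs and 256 ± 24.7 CPM in nontreated EBs (SD, n = 3 each), with a log2 fold change of -0.46 ± 0.09 (SE; adjusted p = 0.0299 by edgeR) and a list median of -0.20. Among 9 targets of NRF2, 2 were called higher, with a median of 0.22. Srxn1, which reduces oxidised peroxiredoxins, had a log2 fold change of 0.61 ± 0.14 (SE; adjusted p = 0.0375 by edgeR), and Gclm, a subunit of the first enzyme of glutathione synthesis, had 0.54 ± 0.12 (SE; adjusted p = 0.0420 by edgeR). Without dTAG-13 EB library 1 or 2, or nontreated EB library 2, none of these 7 list genes was called, with adjusted p of 0.0549 to 0.179 by edgeR. In those fits 182 to 395 of all genes were called. Without nontreated EB library 1 only Hsph1 was called, without dTAG-13 EB library 3 Srxn1, Aldh1l2 and Gclm were not (0.0575 to 0.0654), and without nontreated EB library 3 Cdsn was not (0.0774). With DESeq2 Cdsn was not called either, at an adjusted p of 0.107.

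More list genes were called in EBs once library 3 of both groups was left out. Of the 127 then 20 were called higher and 16 lower, 28.3% of them, while 20.9% of all genes were called. None of the 14 ATF6 and XBP1 targets was then higher and 6 were lower, with a median log2 fold change of -0.20. Of 9 heat shock genes 3 were lower and none higher, and of 9 NRF2 targets 5 were higher and none lower. Of 18 stress and feedback targets 6 were higher and 2 lower, of 10 amino acid transporters 4 were higher and none lower, and of 16 genes of the eIF2 list 3 were higher and 1 lower. The enzymes had 1 higher and 2 lower, the bZIP partners 1 higher, the tRNA synthetases 1 lower and the p53 targets 1 lower. With the replicate number as a block 14 list genes were higher and 4 lower, while 6.87% of all genes were higher, and stress and feedback targets had 5 higher and none lower.

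**Figure D3:**
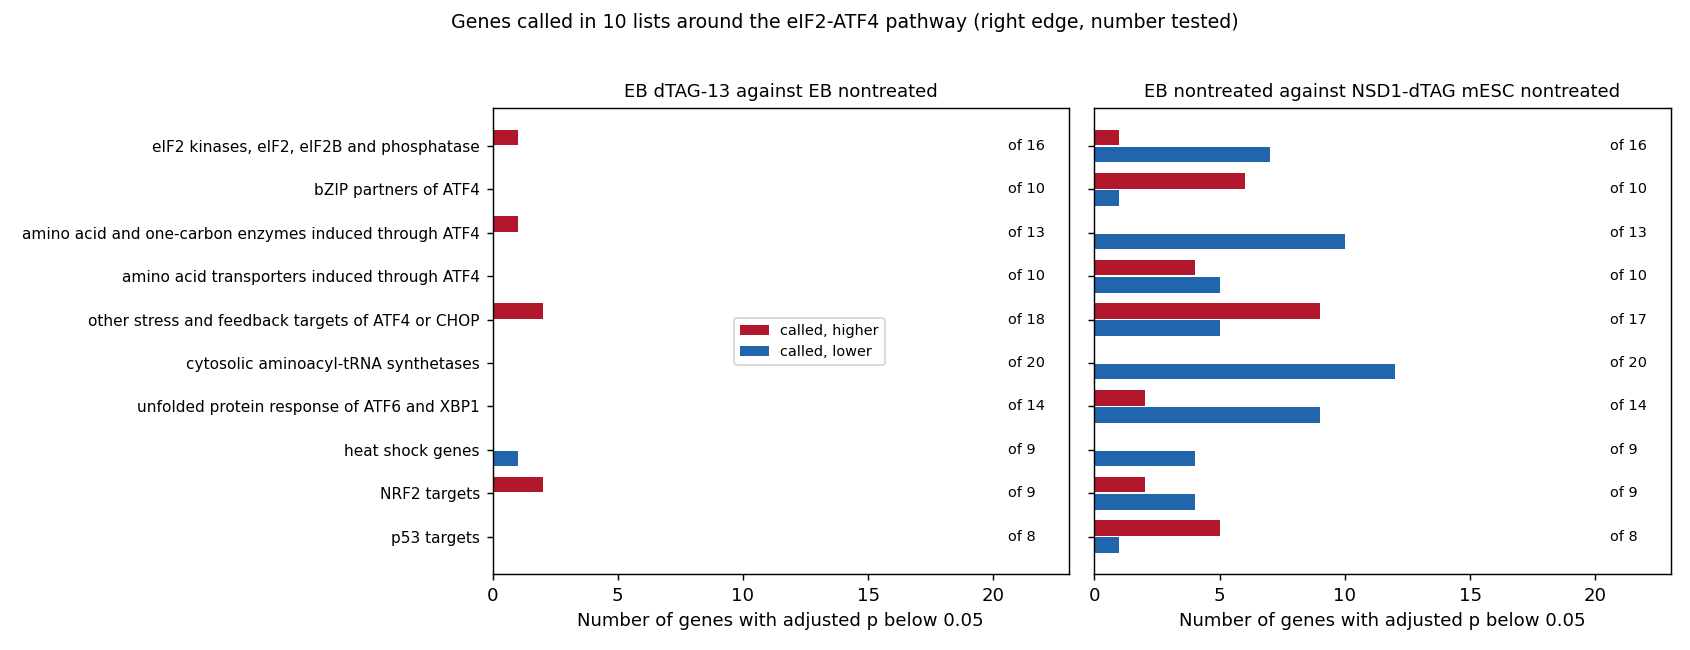
Number of genes called higher or lower (horizontal axis) in 10 lists around the eIF2-ATF4 pathway, with the number tested at the right edge. The left panel compares dTAG-13 EBs with nontreated EBs, where no list has more than 2 calls, and the right panel compares nontreated EBs with nontreated NSD1-dTAG mESCs, where 12 of 20 tRNA synthetase genes and 10 of 13 enzymes are lower.

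Wild-type mESCs, which carry no tag, address what dTAG-13 does without a tagged protein over 72 h. None of the 10 genes was called, and neither was any of the 13784 genes tested (0%), by edgeR at an adjusted p below 0.05. At an unadjusted p below 0.05 edgeR gave 229 genes, and limma-voom and DESeq2 gave no adjusted call and 243 and 79 genes unadjusted. The groups overlapped for all 10 genes, while 6.06% of all genes did not overlap. Ddit3 was at 2.91, 2.69 and 2.95 CPM in dTAG-13 wild-type mESCs and at 2.82, 2.89 and 2.57 CPM in nontreated wild-type mESCs, a log2 fold change of 0.03 ± 0.12 (SE). Slc7a11 was at 4.63, 3.61 and 2.82 CPM in dTAG-13 wild-type mESCs and at 3.04, 3.63 and 5.29 CPM in nontreated wild-type mESCs, a log2 fold change of -0.08 ± 0.24 (SE). The other 8 log2 fold changes ran from -0.35 ± 0.23 (SE) for Atf3 to 0.14 ± 0.10 (SE) for Atf5. In the 10 lists none of the genes tested was called, also without the libraries that stand apart. The edgeR fit without those libraries called 16 of all 13861 genes tested, none of the 10 among them. There 893 genes had an unadjusted p below 0.05. The lack of calls in the main fit does not show that no gene changed.

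**Figure D4:**
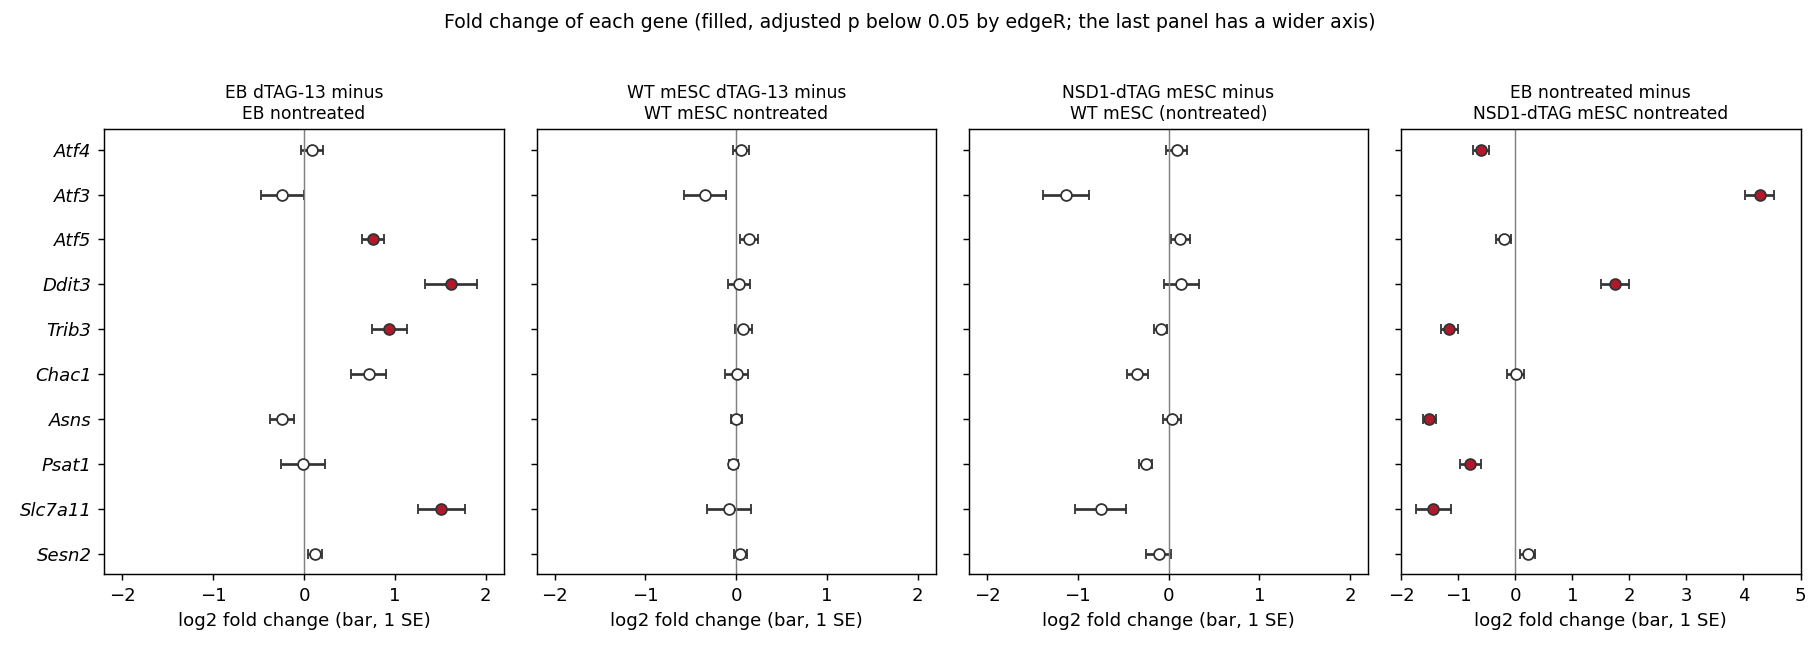
Log2 fold change (horizontal axis, bars of 1 SE) of the 10 genes in 4 comparisons, with the last panel on a wider axis. Filled circles have an adjusted p below 0.05 by edgeR: 4 genes in the first panel, none in the next 2, and 7 in the last, where Atf3 reaches 4.28.

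Whether the effect of dTAG-13 differed between EBs of the tagged line and wild-type mESCs was tested as an interaction over 12 libraries. Genotype, culture and duration differ together between these effects and cannot be told apart. The difference was called for 2 of the 10 genes, both higher, against 2.88% of the 15855 genes tested in either direction and 1.60% higher. It was 1.58 ± 0.37 (SE) log2 for Ddit3 (adjusted p = 0.0385 by edgeR) and 1.61 ± 0.38 (SE) for Slc7a11 (adjusted p = 0.0384 by edgeR). Trib3 had a difference of 0.85 ± 0.23 (SE; adjusted p = 0.0724 by edgeR), Chac1 of 0.71 ± 0.24 (SE; 0.168) and Atf5 of 0.61 ± 0.17 (SE; 0.0850). The other 5 differences lay between -0.25 for Asns and 0.11 for Atf3. With the replicate number as a block within EBs and within mESCs, Ddit3 (adjusted p = 0.0235 by edgeR), Trib3 (0.0167) and Atf5 (0.0446) were called and Slc7a11 was not (0.0696), although numbers did not pair the wild-type mESC libraries. In that fit 475 of all 15855 genes tested were called, 258 of them higher. With limma-voom neither Ddit3 nor Slc7a11 was called, at adjusted p of 0.137 for Ddit3 and 0.0540 for Slc7a11. There 372 of all genes were called.

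Without the libraries that stand apart the difference was called for 6 of the 10 genes, Asns lower and Atf5, Ddit3, Trib3, Chac1 and Slc7a11 higher, against 11.9% of all genes. The calls of Ddit3 and Slc7a11 were also lost when single libraries were left out. In the fits that lost either of them 202 to 375 of all genes were called, against 456 in the main fit. Ddit3 lost its call without nontreated EB library 2 (adjusted p = 0.0939 by edgeR) and without any 1 of the 6 wild-type mESC libraries (0.0800 to 0.107). Slc7a11 lost its call without library 1 or 2 of either EB group (0.0558 to 0.115) and without library 2 or 3 of either wild-type mESC group (0.0790 to 0.0971). Without nontreated EB library 3 Trib3 (0.0377) and Atf5 (0.0252) were called too, and without dTAG-13 EB library 3 Asns was (0.0351). Of all genes 763 were called in the former fit and 621 in the latter. Among the lists Aldh1l2 differed by 1.19 ± 0.28 (SE; adjusted p = 0.0381 by edgeR) and Cdsn by 2.03 ± 0.37 (SE; adjusted p = 0.0126 by edgeR). Aldh1l2 kept its call without dTAG-13 EB library 2 or nontreated EB library 3 only (0.0531 to 0.113 without each of the other 10 libraries), and Cdsn kept its call without any 1 library. In the other lists the smallest adjusted p was 0.0659, for Gclm, and Impact, Hsph1, Slc7a3, Mdm2, Cebpb, Dars and Pdia6, the leading genes elsewhere, were at 0.0723 to 0.373 by edgeR. Without the libraries that stand apart 14 of 127 list genes were called higher and 17 lower, 24.4% of them beside the 11.9% of all genes. Of 14 ATF6 and XBP1 targets 9 were then lower, of 9 heat shock genes 3 were lower, of 9 NRF2 targets 3 were higher and of 18 stress and feedback targets 5 were higher, with none the other way in these 4 lists. In the others 5 genes were called higher (2 of the eIF2 list, 2 transporters and 1 p53 target) beside Aldh1l2, and 5 lower (2 of the eIF2 list, 2 enzymes and 1 p53 target).

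Before any degrader was added, the tagged mESCs were compared with wild-type mESCs. None of the 10 genes was called, against 1.86% of the 13895 genes tested. In plain CPM 5 of the 10 genes had all NSD1-dTAG libraries below all nontreated wild-type libraries, against 16.9% of all genes, and none the other way round. Atf3 was at 0.447, 0.288 and 0.407 CPM in NSD1-dTAG mESCs and at 0.751, 0.926 and 0.962 CPM in wild-type mESCs. These are 8 to 24 counts per library, and the log2 fold change was -1.13 ± 0.26 (SE; adjusted p = 0.0868 by edgeR). Psat1 was at 435, 480.2 and 490.1 CPM in NSD1-dTAG mESCs and at 560.2, 575 and 604 CPM in wild-type mESCs, a log2 fold change of -0.25 ± 0.07 (SE; adjusted p = 0.162 by edgeR). Slc7a11 was at 1.55, 2.37 and 2.89 CPM in NSD1-dTAG mESCs and at 3.04, 3.63 and 5.29 CPM in wild-type mESCs, a log2 fold change of -0.75 ± 0.28 (SE; adjusted p = 0.285 by edgeR). Chac1, at -0.35 ± 0.11, and Trib3, at -0.09 ± 0.08 (log2, SE), completed the 5.

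Same-numbered libraries of these mESC groups deviated together, most for library 1, which stands apart in both groups. The labels do not give this pairing, which was read from the same counts. With the replicate number as a block Slc7a11 was called lower, at -0.76 ± 0.14 (SE; adjusted p = 0.0284 by edgeR), while 3.55% of all genes were called lower. Without NSD1-dTAG library 1, which stands apart, Atf3 (adjusted p = 0.0372 by edgeR) and Psat1 (0.0366) were called lower. Of all 14035 genes tested 1248 were then called, 640 of them lower. Without the library that stands apart in each group, Atf3, Trib3, Chac1, Psat1 and Slc7a11 were called lower (adjusted p of 2.77e-08 to 0.0393 by edgeR), against 11.2% of all genes called lower. In the lists 2 of 123 genes tested were called, 1.63% of them beside the 1.86% of all genes. Cbs, which makes cystathionine, was higher by 0.47 ± 0.08 (log2, SE; adjusted p = 0.0420 by edgeR), at 83.5 ± 1.46 CPM in NSD1-dTAG mESCs and 62.7 ± 4.63 CPM in wild-type mESCs (SD, n = 3 each). Slc1a4 was lower by -0.60 ± 0.10 (log2, SE; adjusted p = 0.0391 by edgeR), at 20.95 ± 2.63 CPM in NSD1-dTAG mESCs and 32.9 ± 0.59 CPM in wild-type mESCs (SD, n = 3 each). Both calls were lost without any 1 library other than NSD1-dTAG library 1 (adjusted p of 0.104 to 0.220 by edgeR) and with ERCC spike-in scaling (0.907 and above). In those fits at most 12 of all genes were called. In the other lists Eif2s2, Fos, Vldlr, Qars, Dnajc3, Hspa1a, Srxn1 and Sesn1 had the smallest p, at adjusted p of 0.0987 to 0.556 by edgeR. With the replicate block 3 list genes were called higher and 3 lower, 4.88% of them against 5.65% of all genes. Without the libraries that stand apart 14 were higher and 21 lower, 28.5% of them against 22.7% of all genes. Of the eIF2 list 5 of 16 were then higher and none lower, of the ATF6 and XBP1 targets 3 of 14 were higher and none lower, of the bZIP partners 4 of 7 were lower and none higher, and of the stress and feedback targets 5 of 17 were lower and none higher. Transporters had 1 higher and 4 lower, enzymes 2 higher and 4 lower, and tRNA synthetases 1 higher and 3 lower. Heat shock genes had 1 higher and 1 lower, NRF2 targets 1 higher and p53 targets none.

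Nontreated EBs were compared with the nontreated mESCs of the same line, which differ by 6 days of EB formation. Spike-ins made up 0.292% to 0.496% of counts in mESC libraries and 0 in EB libraries. Sample preparation and culture thus differ together with EB formation and cannot be told apart from it. Called were 7 of the 10, 2 higher and 5 lower. This is near the share of all 15193 genes tested, of which 59.5% were called, 33.1% higher and 26.3% lower. Calls in both directions therefore do not set the 10 genes apart. Atf3 was at 9.69, 8.01 and 7.17 CPM in nontreated EBs and at 0.447, 0.288 and 0.407 CPM in NSD1-dTAG mESCs, with no overlap. Its log2 fold change was 4.28 ± 0.25 (SE; adjusted p = 3.51e-06 by edgeR), 21.8-fold in mean CPM. Ddit3 was at 13.5, 8.44 and 10.9 CPM in nontreated EBs and at 3.68, 2.48 and 2.61 CPM in NSD1-dTAG mESCs, a log2 fold change of 1.75 ± 0.25 (SE; adjusted p = 0.000412 by edgeR).

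Of the 5 that were lower in EBs, Asns moved most. It was at 291, 288 and 276 CPM in nontreated EBs and at 804, 698 and 690.5 CPM in NSD1-dTAG mESCs, a log2 fold change of -1.50 ± 0.12 (SE; adjusted p = 1.66e-05 by edgeR). Slc7a11 was at 0.895, 0.676 and 1.19 CPM in nontreated EBs and at 1.55, 2.37 and 2.89 CPM in NSD1-dTAG mESCs, a log2 fold change of -1.43 ± 0.31 (SE; adjusted p = 0.00446 by edgeR). Trib3 was at 21.6, 16.8 and 23.1 CPM in nontreated EBs and at 41.8, 41.1 and 40.6 CPM in NSD1-dTAG mESCs, a log2 fold change of -1.15 ± 0.14 (SE; adjusted p = 0.000210 by edgeR). EBs and mESCs did not overlap for any of these 3 genes. Psat1 had a log2 fold change of -0.79 ± 0.18 (SE; adjusted p = 0.00600 by edgeR) and Atf4 of -0.59 ± 0.14 (SE; adjusted p = 0.00645 by edgeR). Atf4 was at 215 ± 18.2 CPM in nontreated EBs and 293 ± 38.2 CPM in NSD1-dTAG mESCs (SD, n = 3 each). Atf5, Chac1 and Sesn2 were not called, with log2 fold changes of -0.20 ± 0.13, 0.01 ± 0.14 and 0.22 ± 0.14 (SE). In plain CPM 3 genes lay wholly above and 5 wholly below the mESC libraries, against 42.1% and 24.3% of all genes. All 7 calls held when any 1 library was left out, and with both libraries that stand apart left out Atf5 was called lower as well (adjusted p = 0.0174 by edgeR).

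Slc7a11 and Trib3, lower in nontreated EBs than in mESCs, and Ddit3, higher, were all higher in EBs with dTAG-13 than in EBs without. These comparisons share the nontreated EB libraries. In dTAG-13 EBs Trib3 averaged 39.9 ± 9.54 CPM and Slc7a11 2.68 ± 0.30 CPM, with 41.2 ± 0.60 CPM and 2.27 ± 0.68 CPM for the same genes in NSD1-dTAG mESCs (SD, n = 3 each), and the libraries of these groups overlapped for both genes. Asns averaged 244 ± 44.7 CPM in dTAG-13 EBs (SD, n = 3), and each of those libraries lay below every mESC library.

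Of 126 list genes tested in nontreated EBs against NSD1-dTAG mESCs 29 were called higher and 58 lower, beside the 33.1% higher and 26.3% lower of all genes. Of 13 enzymes 10 were called lower and none higher, with a median log2 fold change of -1.03 beside 0.02 for all genes. The genes named here are those with the smallest p of each list. They were Cbs at -2.74 ± 0.10, the branched-chain transaminase Bcat1 at -2.19 ± 0.11 and the serine hydroxymethyltransferase Shmt2 at -1.44 ± 0.10 (log2, SE), with adjusted p of at most 6.96e-06 by edgeR. Of 20 tRNA synthetases 12 were lower and none higher, with a median of -0.46. Cars at -0.74 ± 0.10, Qars at -0.61 ± 0.09 and Tars at -0.74 ± 0.11 (log2, SE) had adjusted p of 0.000238 to 0.000718 by edgeR. Of 14 targets of ATF6 and XBP1, 2 were higher and 9 lower (median -0.49), led by Pdia4 at -1.02 ± 0.10, Sdf2l1 at -1.54 ± 0.20 and Hyou1 at -0.70 ± 0.11 (log2, SE). Of 9 heat shock genes 4 were lower and none higher (median -0.39), led by Hspb1 at -1.09 ± 0.20, Hsp90aa1 at -0.95 ± 0.14 and Hspa1b at -1.64 ± 0.21 (log2, SE). Of 16 genes of the eIF2 list 1, Impact, was higher and 7 were lower (median -0.32), led by Eif2b4 at -1.44 ± 0.17, Eif2s2 at -1.15 ± 0.19 and Eif2b5 at -0.67 ± 0.12 (log2, SE).

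In the remaining lists calls went in both directions. Of 10 bZIP genes 6 were higher and 1 lower (median 1.12), led by Jun at 5.06 ± 0.29, Cebpd at 4.22 ± 0.36 and Cebpb at 2.78 ± 0.19 (log2, SE). Jun was at 72.4, 45.2 and 38.4 CPM in nontreated EBs and at 1.37, 1.47 and 1.38 CPM in NSD1-dTAG mESCs. Of 17 other stress and feedback targets 9 were higher and 5 lower (median 0.60). Ddit4, an inhibitor of mTORC1, at 3.94 ± 0.14, and the BH3-only genes Bcl2l11 at 3.52 ± 0.21 and Bbc3 at 2.00 ± 0.15 led them (log2, SE), while Cdsn and Gdf15 were among those called lower. Of 10 amino acid transporters 4 were higher and 5 lower (median 0.01), led by Slc36a4 at 3.79 ± 0.25, Slc43a1 at 2.88 ± 0.17 and Slc1a5 at -1.71 ± 0.12 (log2, SE). Of 9 NRF2 targets 2 were higher and 4 lower (median -0.14), led by Nqo1 at -3.19 ± 0.17, Gsr at -1.03 ± 0.10 and Slc48a1 at -0.71 ± 0.14 (log2, SE), and of 8 p53 targets 5 were higher and 1, Cdkn1a at -0.75 ± 0.12, was lower (median 0.49). Trp53inp1 at 0.76 ± 0.16 and Ccng1 at 0.45 ± 0.10 (log2, SE) were the leading p53 targets among the higher ones. The 30 list genes whose fold changes are given for this comparison stayed called under each of the 15 alternatives, which include leaving out each library, while Impact was not called with the replicate block. Without the libraries that stand apart 31 of the 126 list genes were higher and 74 lower, 83.3% of them against 73.2% of all genes. Then 17 of 20 tRNA synthetases, 12 of 16 genes of the eIF2 list and 7 of 9 heat shock genes were lower, and the other 7 lists each moved by at most 1 call in a direction.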

How the data were processed

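The files deposited by the authors hold unnormalised counts of reads for each gene, 1 table a library. Per the submitters' processing notes, bcl2fastq 2.20.0.422, STAR and DESeq2 1.30.0 were used, with builds named as mm10 and GRCm38.p6. How reads were counted, and on which strand, is not given in the sources used. Of 55471 gene IDs 55230 matched GENCODE M21 (GRCm38), which gave symbols and lengths. ERCC spike-ins, 0 in EBs and 0.292% to 0.496% of counts in mESCs, stayed out of library sizes, while the 241 unmatched IDs (at most 0.002% of counts) were kept under their IDs. The symbol Ddit3 also belongs to a second ID with 0 counts in all libraries. The test was that of edgeR 4.0.16, run in R 4.3.3 (quasi-likelihood F test, TMM, filterByExpr, Benjamini-Hochberg adjustment over all genes tested, threshold 0.05), each comparison on its own groups and the interaction on 12 libraries, and the script was tested on simulated data. DESeq2 1.42.0, limma-voom (limma 3.58.1), other scalings, no filter, a replicate block, a gene-length offset and left-out libraries were alternatives. CPM are gene counts scaled to the same total in every library, and fold changes are log2. Same-numbered libraries deviated together in the EB groups (correlations 0.23, 0.27 and 0.37) and between NSD1-dTAG and wild-type nontreated mESCs (0.58, 0.29 and 0.29), a pairing read from the data. All 10 genes and the named members of each list (up to 3 called genes with the smallest p, or the 1 gene with the smallest p) follow a rule. The genes and lists were chosen with earlier results of these data known. Python 3.11.15, pandas 2.3.3 and matplotlib 3.10.9 made tables and plots.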

Additional observations from a re-analysis of the deposited data

Results flagged for a closer look

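The effects of dTAG-13 in EBs of the tagged line and in wild-type mESCs differed in the interaction test for 4 of the genes named. These were 2 of the 10 genes and 2 of 127 list genes, while 2.88% of all genes tested were called. With 1 library left out Ddit3 kept its call in 5 of 12 fits and Slc7a11 in 4 of 12, and limma-voom called neither. Over all 21 alternatives Aldh1l2 kept its call in 10 and Cdsn in 21. Genotype, culture and duration differ together between the effects and cannot be told apart. The difference, EBs minus wild-type mESCs, was 1.58 (log2) for Ddit3, 1.61 for Slc7a11, 1.19 for Aldh1l2 and 2.03 for Cdsn. For Ddit3 the effect was 1.62 in EBs and 0.03 in wild-type mESCs. For Slc7a11 it was 1.51 in EBs and -0.08 in wild-type mESCs. For Cdsn it was 1.33 in EBs and -0.70 in wild-type mESCs, where the adjusted p was 1.0 by edgeR. The test for a single outlying value was not applied to groups of 3 libraries.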

How the results depend on the processing

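Over the 10 genes in 5 comparisons, 830 alternative values were computed. None of them reversed a call, 761 kept their side of the threshold, 27 fell short of it and 42 passed it, and over all named genes 69 uncalled values changed sign. In nontreated EBs against NSD1-dTAG mESCs every one of the 7 member calls was kept, and in wild-type mESCs no member was called under any alternative.

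The count of all genes called for dTAG-13 EBs against nontreated EBs was 1686 with DESeq2, 1834 with the replicate block, 1830 with a gene-length offset added to it, 1931 with all 15 libraries in one fit, 3233 without the libraries that stand apart and 182 to 1293 with 1 library left out (184 and 395 without dTAG-13 EB library 1 or 2, and 301 and 182 without nontreated EB library 1 or 2). Of the 10 genes 7 were called without the libraries that stand apart and 0 to 5 with 1 library left out. For wild-type mESCs 16 of all genes were called without the libraries that stand apart. For NSD1-dTAG against wild-type mESCs all genes called were 1 with ERCC scaling, 636 with DESeq2, 785 with the replicate block, 650 with the length offset, 1388 with both, 500 with all 15 libraries, 3123 without the libraries that stand apart and 1 to 1248 with 1 library left out (1248 without NSD1-dTAG library 1, and at most 12 without any other). Of the 10 genes 1 was called with the block, 1 with the length offset (Atf3), 4 with both, 5 without the libraries that stand apart and 0 to 2 with 1 left out. For the difference of the dTAG-13 effects all genes called were 915 without a count filter, 804 with DESeq2, 726 with the block and length offset, 1897 without the libraries that stand apart and 202 to 763 with 1 left out (763 without nontreated EB library 3, 260 without dTAG-13 EB library 1, 238 without nontreated EB library 2, and at most 274 without any wild-type library). Of all 15855 genes tested 372 were called with limma-voom and 612 with the length offset. Of the 10 genes 4 were called without a filter, 4 with DESeq2, 0 with limma-voom, 4 with the length offset, 5 with it and the block, 6 without the libraries that stand apart and 0 to 4 with 1 left out. Fewer samples, a spread narrowed by leaving out the libraries that stand apart, or a pooled spread changes such counts by construction. Other causes were not tested.

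Replicate numbers did not pair the wild-type mESC groups (correlations -0.29, 0.23 and -0.25) or EBs with mESCs (-0.20, 0.13 and -0.27). Not every library correlated best with its own number. There the block gave 0 calls over all genes in wild-type mESCs and 7999 in EBs against mESCs, and 0 and 7 among the 10 genes, and it changed no other call of the 10 genes than those given above. ERCC scaling could not be run where EBs enter, because their spike-in counts are 0. TMM-scaled CPM moved 8 of 50 group means by more than 1 SD, and the longest transcript as length moved 13 of 50 ranks. Slc7a11, Atf3 in mESCs and Cdsn rest on few counts, which limits their precision.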
